A study of Homo sapiens with 4 samples.

Results

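Chromosomes 4, 13 and 18 are gene-poor human autosomes, and the intervals described here were all domains and boundary regions that the files place on them. They were taken by chromosome name alone, from each of 4 Hi-C libraries, and numbered 1933 of 15427 domains and 303 of 2439 boundary regions over the libraries. Hi-C joins and sequences pieces of DNA that lie close together in the nucleus, and the design asked whether chromosomes fold differently when HNRNPU, an RNA-binding protein of the nucleus, is depleted. The cells were H1, an established human embryonic stem cell line (hPSC) grown in mTeSR1 medium on Matrigel, infected with a lentivirus that carried a short hairpin RNA against luciferase (shLUC, the control, libraries 1 and 2) or against HNRNPU (shHNRNPU, libraries 1 and 2). Cells of all 4 libraries were selected with puromycin and fixed with formaldehyde, and their chromatin was cut with HindIII. The virus was packaged in 293T cells, and neither the hairpin sequences nor the remaining level of HNRNPU is given in the sources used here. The intervals hold no expression values, so neither the knockdown nor the identity of the cells could be checked from them.

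A domain is a stretch of chromosome whose pieces contact each other more often than they contact the neighbouring sequence. Loops extruded by cohesin and stopped at CTCF sites are known to form many such domains, and active genes often lie near their borders. Gene-poor chromosomes tend to lie towards the nuclear periphery and carry long stretches of inactive, lamina-bound chromatin. HNRNPU, also called SAF-A, binds chromatin-associated RNA and has been linked to the opening of active chromatin.

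The gene table used here (RefSeq, GRCh38.p14) bore out the label. Chromosomes 18, 13 and 4 had the 3 lowest densities of protein-coding genes among 22 autosomes, with 3.36, 3.45 and 4.08 genes per Mb outside gaps. The 3 chromosomes together had 3.76 genes per Mb, against 7.46 on the other 19 autosomes and 13.7 on chromosomes 16, 17, 19, 20 and 22. In every library the domains, the boundary regions between them and the gaps (stretches with no call) together covered the same 385 Mb of chromosomes 4, 13 and 18, in bins of 40 kb.

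Some borders that differed between the groups had a listed protein-coding gene start close by, and the sequence before that start is shown. Other regulatory sequences were not mapped, so a nearer one may exist. A border is a domain start or end. A lost border was one that the shLUC libraries shared to within 1 bin and that lay more than 3 bins (120 kb) from every border of both shHNRNPU libraries, and a gained border was the converse. On each chromosome the start nearest to a lost and to a gained border was taken where it lay within 1 bin. All listed starts of a gene were considered, so the start taken need not be its outermost or main one. This gave HELT, a helix-loop-helix transcription factor of the developing brain, 18.5 kb from a lost border (chr4:185018240-185018489, plus strand). That distance is from the shLUC 1 position, 185000000. In shLUC 2 the border lay 1 bin lower, at 184960000, more than 1 bin from the HELT start, and an exact-bin match does not call it. It gave SLAIN1, a microtubule-associated protein, 18.8 kb from a lost border (chr13:77740969-77741218, plus strand), and MRO 20.02 kb from a lost border (chr18:50820017-50820266, minus strand). It also gave NR3C2, the mineralocorticoid receptor, 2.41 kb from a gained border (chr4:148442415-148442664, minus strand). The 250 bases before each start are RefSeq sequence (GRCh38.p14), 5′ to 3′, with capitals for a GC box (GGGCGG, the site known to bind Sp1, on either strand).
HELT: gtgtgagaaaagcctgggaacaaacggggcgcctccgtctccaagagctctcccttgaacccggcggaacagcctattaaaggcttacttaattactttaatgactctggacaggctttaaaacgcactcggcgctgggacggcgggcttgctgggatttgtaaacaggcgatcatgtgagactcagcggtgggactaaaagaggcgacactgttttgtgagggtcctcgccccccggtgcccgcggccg
SLAIN1: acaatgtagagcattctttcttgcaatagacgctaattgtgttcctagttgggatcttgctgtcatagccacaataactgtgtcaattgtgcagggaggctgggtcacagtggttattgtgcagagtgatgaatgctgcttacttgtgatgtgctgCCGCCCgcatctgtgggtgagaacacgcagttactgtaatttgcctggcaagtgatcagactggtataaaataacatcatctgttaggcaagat
MRO: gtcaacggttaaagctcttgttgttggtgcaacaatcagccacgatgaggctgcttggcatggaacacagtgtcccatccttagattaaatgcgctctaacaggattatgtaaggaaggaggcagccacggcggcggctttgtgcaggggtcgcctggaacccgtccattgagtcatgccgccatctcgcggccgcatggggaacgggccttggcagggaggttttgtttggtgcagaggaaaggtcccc
NR3C2: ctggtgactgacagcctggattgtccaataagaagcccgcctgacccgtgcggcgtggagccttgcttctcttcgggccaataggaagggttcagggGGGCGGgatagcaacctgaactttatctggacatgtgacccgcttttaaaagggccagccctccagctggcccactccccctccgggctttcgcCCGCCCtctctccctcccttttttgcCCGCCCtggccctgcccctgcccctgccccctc

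The NR3C2 window held 3 GC boxes and the SLAIN1 window 1, whereas the HELT and MRO windows held none. Of 34941 listed promoter windows of this length, 42.5% held at least 1 GC box, and of 3282 windows on chromosomes 4, 13 and 18, 34.9% did. The G and C content was 56.8% for HELT, 44.8% for SLAIN1, 56.4% for MRO and 63.6% for NR3C2, beside a median of 52.4% on the 3 chromosomes and 58.0% over all windows. Neither of the short CTCF core motifs that were searched on both strands, AGGGGGCGC (in 1.75% of all windows) and AGGTGGCAG (in 0.621%), was present in any of the 4 windows. The searched motifs can share bases.

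The number of domains was compared first. On chromosomes 4, 13 and 18 there were 496 and 486 domains in shLUC libraries 1 and 2, 495 in shHNRNPU 1 and 456 in shHNRNPU 2. Thus shHNRNPU 1 lay between the control libraries and shHNRNPU 2 lay below all the others. The means were 491 ± 7.07 and 475.5 ± 27.6 domains (SD, n = 2 each), a difference of −15.5 domains that lay within the spread of the shHNRNPU pair. The two-sided exact permutation test of the library labels gave p = 0.667 (n = 2 per group), or 0.857 after Benjamini-Hochberg adjustment over the 18 comparisons of this kind. The smallest p that 2 libraries against 2 can give is 0.333, so no comparison made in this way could pass the usual threshold. Nothing in the labels says that the 2 libraries of a group came from separate cultures, so these p-values measure only the spread between the libraries. Without shHNRNPU 2 the difference was 4 domains, with the opposite sign.

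The 3 chromosomes did not move together. Chromosome 4 had 258 and 238 domains in shLUC, 249 in shHNRNPU 1 and 217 in shHNRNPU 2, and the groups overlapped. Chromosome 13 had 138 and 146 domains in shLUC and 137 and 135 in shHNRNPU, so both shHNRNPU libraries were lower, by a mean of 6 domains (exact permutation p = 0.333, adjusted 0.667, n = 2 per group). Both shHNRNPU libraries were lower on 10 of the 22 autosomes (45.5%), so the order on chromosome 13 was shared with many chromosomes. Chromosome 18 had 100 and 102 domains in shLUC and 109 and 104 in shHNRNPU, and was the only one of the 22 autosomes (4.55%) with both shHNRNPU libraries higher (difference 5.5 domains, exact permutation p = 0.333, adjusted 0.667, n = 2 per group). Without domains of at most 200 kb the groups overlapped on chromosome 13 and on chromosome 18. The other autosomes were not recounted in this way.

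**Figure D1:**
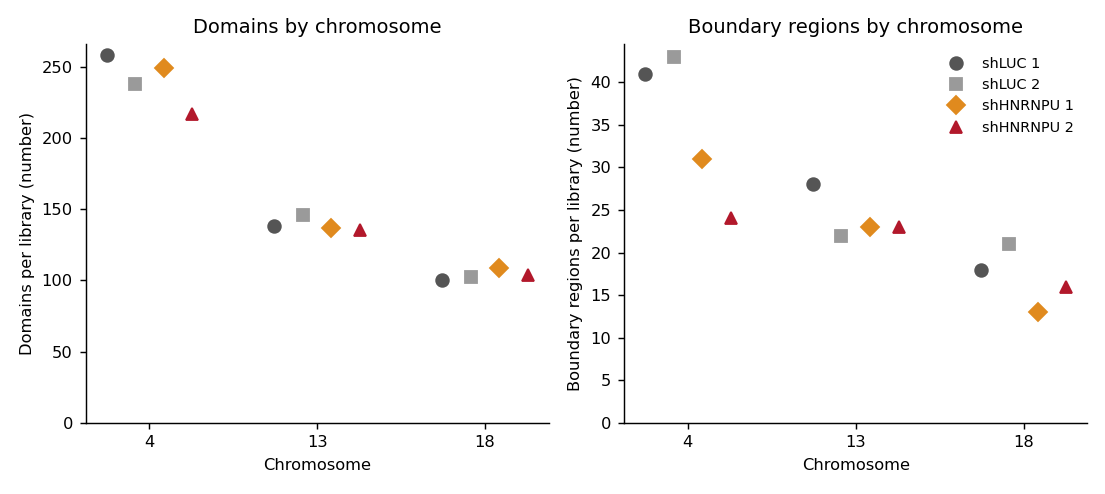
Number of domains (left) and of boundary regions (right) on chromosomes 4, 13 and 18, with 1 point per library. On chromosome 18 both shHNRNPU libraries had more domains (109 and 104) than the shLUC libraries (100 and 102), and on chromosome 4 they had fewer boundary regions (31 and 24 against 41 and 43). Domains of at most 200 kb are included, and without them the domain numbers of the groups overlapped on chromosome 18.

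Because shHNRNPU 2 had fewer domains than the other libraries over most of the genome, the domains were next set against those of the other 19 autosomes in the same library. These held 3293, 3303, 3235 and 2805 domains in shLUC 1, shLUC 2, shHNRNPU 1 and shHNRNPU 2. The domains of chromosomes 4, 13 and 18 came to 15.1% and 14.7% of that number in shLUC, 15.3% in shHNRNPU 1 and 16.3% in shHNRNPU 2. Both shHNRNPU libraries lay above both controls, and the log2 ratio was higher by 0.08 (exact permutation p = 0.333, adjusted 0.667, n = 2 per group). The difference was 0.13 without shHNRNPU 1 and 0.04 without shHNRNPU 2. Against chromosomes 16, 17, 19, 20 and 22 alone it was 0.27, and against the remaining autosomes 0.06.

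In shHNRNPU 2, chromosome 18 kept 103% of its shLUC mean, chromosome 13 kept 95.1% and chromosome 4 kept 87.5%. From the highest of the 22 autosomes these ranked 1, 3 and 10. Over the autosomes this percentage was lower where genes were denser (Pearson correlation −0.68 and Spearman correlation −0.56 over 22 chromosomes, −0.64 and −0.44 over the 19 others). In shHNRNPU 1 the relation was weak (Pearson 0.11 and Spearman 0.12), with chromosome 18 at 108%, chromosome 4 at 100.4% and chromosome 13 at 96.5%. The chromosomes share their library and the shLUC mean they were set against, and are not independent, so these values only describe the libraries.

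**Figure D2:**
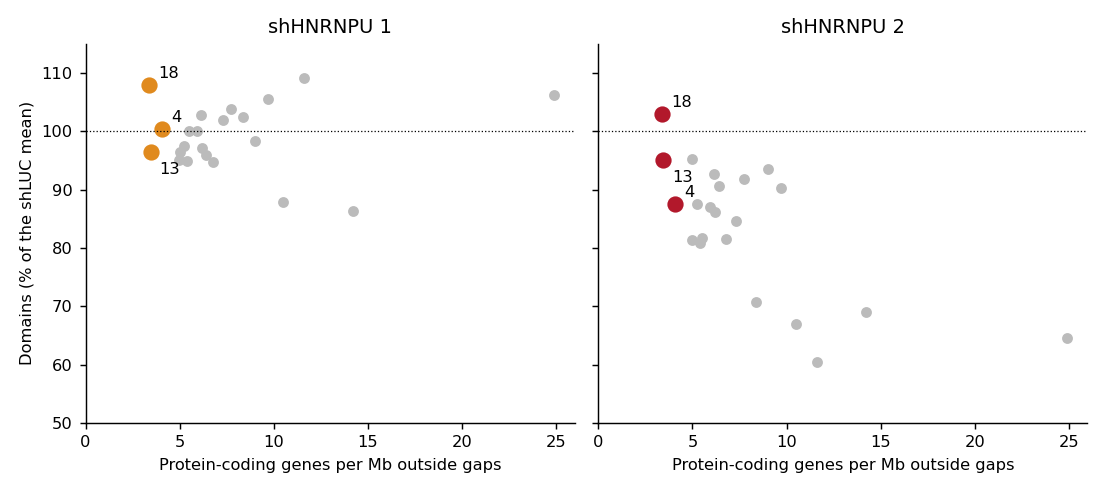
Domains in shHNRNPU 1 (left) and shHNRNPU 2 (right) as a percentage of the mean of the shLUC libraries, against the density of protein-coding genes, with 1 point per autosome and chromosomes 4, 13 and 18 in colour. The vertical axis starts at 50%. In shHNRNPU 2 chromosomes 18, 13 and 4 stood at 103%, 95.1% and 87.5%.

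Domain lengths told the same libraries apart. The median was 600 kb in shLUC 1, shLUC 2 and shHNRNPU 1, and 640 kb in shHNRNPU 2. The difference of 20 kb was less than 1 bin (exact permutation p = 1.0, n = 2 per group), and it was 0 kb among domains that touched no gap. On the other 19 autosomes the medians were 560 kb in the first 3 libraries and 640 kb in shHNRNPU 2, so domains on the gene-poor chromosomes were longer by 1 bin in every library but that one. The mean length was 715 and 730 kb in shLUC, 724 kb in shHNRNPU 1 and 791 kb in shHNRNPU 2. Relative to the mean of the other autosomes, the log2 difference was −0.07, with both shHNRNPU libraries below both controls (exact permutation p = 0.333, adjusted 0.667, n = 2 per group).

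At both ends of the length range shHNRNPU 2 stood apart. Domains of at least 2 Mb numbered 11 and 13 in shLUC, 11 in shHNRNPU 1 and 21 in shHNRNPU 2. They held 8.21%, 9.59%, 7.32% and 14.9% of the domain sequence, beside 11.9% to 12.2% in the first 3 libraries and 22.8% in shHNRNPU 2 on the other 19 autosomes. Chromosome 4 held most of the additional ones, with 5 and 9 long domains in shLUC, 7 in shHNRNPU 1 and 14 in shHNRNPU 2. Every library's count included a 2.08 Mb domain of chromosome 4 (49680001 to 51760000) and a 4.8 Mb domain of chromosome 18 (15800001 to 20600000). Neither held a listed gene start. Domains of at most 200 kb numbered 39 and 35 in shLUC, 30 in shHNRNPU 1 and 50 in shHNRNPU 2. On chromosome 18 there were 5 such short domains in each of the first 3 libraries and 13 in shHNRNPU 2. On the 3 chromosomes together short domains made up 7.86%, 7.20%, 6.06% and 11.0% of all domains. On the other 19 autosomes there were 308, 338 and 298 short domains in the first 3 libraries and 274 in shHNRNPU 2, or 9.35%, 10.2%, 9.21% and 9.77% of domains. On the gene-poor chromosomes shHNRNPU 2 thus had the largest shares of both short and long domains, whereas on the other autosomes its share of short ones lay within the range of the other libraries.

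**Figure D3:**
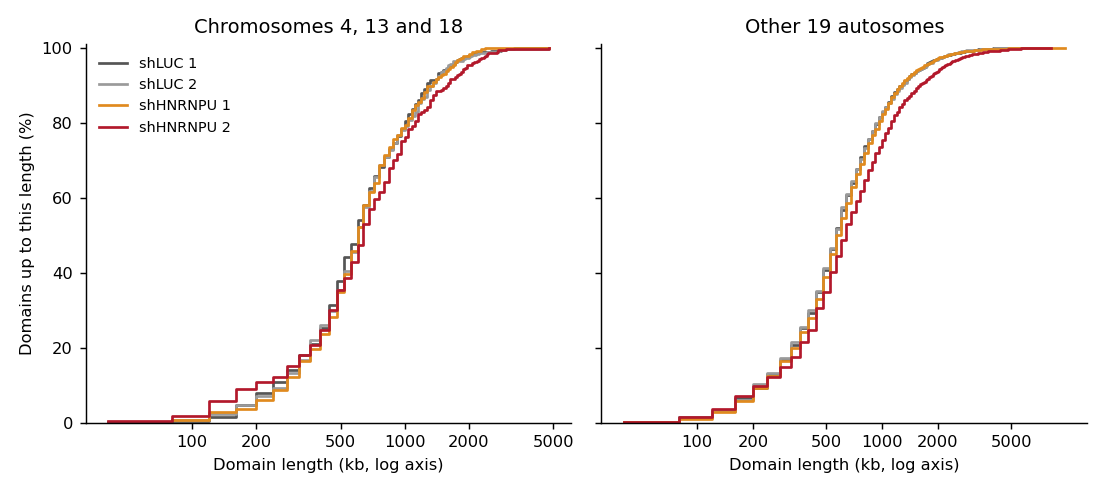
Share of domains up to each length (log axis) on chromosomes 4, 13 and 18 (left) and on the other 19 autosomes (right), with 1 line per library. The line of shHNRNPU 2 lies above the others up to 200 kb on the left, where it had 50 domains of at most 200 kb against 30 to 39, and below them from 600 to 2000 kb in both panels.

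The longest domain of chromosome 18 was the same in all libraries, from 15800001 to 20600000 (4.8 Mb). It held no listed gene start, and it lies in the stretch of this chromosome where the centromere is placed in the hg38 build. The longest domains of chromosome 4 were 3.28 and 3.04 Mb in shLUC, 2.28 Mb in shHNRNPU 1 and 3.4 Mb in shHNRNPU 2. The longest domain of chromosome 4 ran from 128960001 to 132240000 in shLUC 1, and those of shHNRNPU 1 (130400001 to 132680000) and shHNRNPU 2 (129240001 to 132640000) overlapped it, whereas in shLUC 2 it lay elsewhere, from 159440001 to 162480000. On chromosome 13 the longest domains were 2.4 and 1.88 Mb in shLUC, 2.28 Mb in shHNRNPU 1 and 2.76 Mb in shHNRNPU 2.

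Along the chromosomes the differences were uneven. The first 20 Mb of chromosome 4 had 30 domains in each shLUC library, 26 in shHNRNPU 1 and 22 in shHNRNPU 2, and the median length there was 480, 540, 480 and 820 kb. From 120 to 140 Mb chromosome 4 had 22 and 21 domains in shLUC and 18 and 16 in shHNRNPU. On chromosome 13 the window from 20 to 40 Mb had 30 domains in each shLUC library and 27 and 26 in shHNRNPU, and the window from 40 to 60 Mb had 29 in each and 27 and 25. On chromosome 18 the window from 40 to 60 Mb had 27 domains in the first 3 libraries and 33 in shHNRNPU 2. These windows were picked after their values were seen. The window of chromosome 4 from 100 to 120 Mb, with 27 domains in each shLUC library and 24 and 22 in shHNRNPU, had the same order. In all remaining windows of the 3 chromosomes the groups overlapped or met. Windows of other chromosomes were not counted, so there is no background for this order.

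Boundary regions are stretches between domains that belong to neither neighbour. On chromosomes 4, 13 and 18 there were 87 and 86 of them in shLUC, 67 in shHNRNPU 1 and 63 in shHNRNPU 2. Both shHNRNPU libraries were lower, and the means of 86.5 ± 0.707 and 65.0 ± 2.83 (SD, n = 2 each) differed by −21.5, more than the spread within each pair (exact permutation p = 0.333, adjusted 0.667). Leaving out 1 library at a time gave −23.5 to −19.5. Boundary regions covered 12.0 and 11.68 Mb in shLUC and 9.32 and 7.08 Mb in shHNRNPU, with a median length of 120 kb in every library.

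Chromosome 4 had 41 and 43 boundary regions in shLUC and 31 and 24 in shHNRNPU, and chromosome 18 had 18 and 21 in shLUC and 13 and 16 in shHNRNPU. Chromosome 13 had 28 and 22 in shLUC and 23 in each shHNRNPU library, and there the groups overlapped. Chromosomes 4 and 18 were among 6 of the 22 autosomes (27.3%) on which both shHNRNPU libraries were lower. The sum over the other 19 autosomes was 544 and 532 boundary regions in shLUC, 544 in shHNRNPU 1 and 390 in shHNRNPU 2. Relative to them, the gene-poor chromosomes had 15.99% and 16.2% in shLUC, 12.3% in shHNRNPU 1 and 16.2% in shHNRNPU 2. The log2 difference was −0.19 and the groups overlapped (exact permutation p = 0.667, adjusted 0.857, n = 2 per group). In shHNRNPU 1 the number was therefore lower in the sum of the gene-poor chromosomes and not in that of the others, and in shHNRNPU 2 in both. The sums hide the single chromosomes. In shHNRNPU 1 chromosomes 4, 13 and 18 stood at 73.8%, 92.0% and 66.7% of their shLUC mean. The others ran from 42.9% on chromosome 19, the most gene-dense autosome, to 152% on chromosome 17, with chromosome 8 at 69.6%.

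The share of borders at which domains met directly was higher in both shHNRNPU libraries over the 3 chromosomes, but not on each of them. Of all borders on the 3 chromosomes, 63.2% and 60.4% lay between adjoining domains in shLUC and 70.1% and 69.2% in shHNRNPU. The groups did not overlap on chromosome 4 (62.8% and 57.6% against 70.5% and 74.3%) or on chromosome 18 (66.7% and 63.2% against 75.8% and 71.9%). On chromosome 13 they did, at 61.4% and 63.1% in shLUC, 65.1% in shHNRNPU 1 and 59.8% in shHNRNPU 2. The number of such borders on the 3 chromosomes also overlapped, at 384 and 366 in shLUC and 408 and 373 in shHNRNPU. On the other 19 autosomes the same share was 62.9% and 63.4% in shLUC and 64.6% and 64.2% in shHNRNPU. Both shHNRNPU libraries were thus higher there too, by less. How many single autosomes showed this order was not counted, so chromosomes 4 and 18 have no background for it. Gaps on the 3 chromosomes covered 18.12 and 18.32 Mb in shLUC and 17.32 and 17.44 Mb in shHNRNPU, and on chromosome 4 they covered 1.48, 1.44, 0.84 and 0.72 Mb. Less gap and fewer boundary regions thus moved together on the 3 chromosomes. The difference in boundary regions was −20.5 when those touching a gap were left out. On the other 19 autosomes gaps covered 112.72 and 113.16 Mb in shLUC and 110.6 and 111.08 Mb in shHNRNPU. Boundary regions there numbered 544 and 532 in shLUC, 544 in shHNRNPU 1 and 390 in shHNRNPU 2. A link between gaps and boundary regions was not tested. For the number of domains, leaving out those touching a gap changed the difference from −15.5 to −4.5.

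The positions of boundary regions were shared poorly even between control libraries. Of the boundary sequence of shLUC 1, 33.0% was also boundary in shLUC 2, 18.7% in shHNRNPU 1 and 16.7% in shHNRNPU 2, and the rest was domain. Of that of shLUC 2, 33.9% was boundary in shLUC 1, 26.0% in shHNRNPU 1 and 16.1% in shHNRNPU 2. In the opposite direction 24.03% and 32.6% of the boundary sequence of shHNRNPU 1 was boundary in shLUC 1 and shLUC 2, and 28.2% and 26.6% of that of shHNRNPU 2. The overlap of shHNRNPU 1 with shLUC 2 was thus near that of the control pair when read from shHNRNPU 1. Of 32 boundary regions of shLUC 1 that overlapped one of shLUC 2, 12 (37.5%) overlapped none in either shHNRNPU library, against 33.2% over all 24 chromosomes. In the other direction 2 of 15 (13.3%) overlapped none in shLUC, against 37.7% over all chromosomes. All 12 lay wholly within domains in both shHNRNPU libraries. One of them, on chromosome 4 from 154320001 to 154520000, followed the domain of SFRP2, a secreted inhibitor of Wnt signalling, and that domain (153760001 to 154320000) was identical in all 4 libraries.

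Next, the positions of borders were compared. There were 608 and 606 borders in shLUC, 582 in shHNRNPU 1 and 539 in shHNRNPU 2. With matching within 1 bin, the Jaccard index (shared borders over all borders of a pair) was 0.531 for the shLUC pair and 0.479 for the shHNRNPU pair. Against shLUC 1 and shLUC 2 it came to 0.543 and 0.531 for shHNRNPU 1, and to 0.446 and 0.442 for shHNRNPU 2. Thus shHNRNPU 1 shared about as many borders with the controls as they shared with each other. Pairs within a group exceeded pairs between groups by 0.0142 on average, and this changed sign, to −0.000133, when matching was at the same bin. Each of the 6 pairs was higher here than on the other 19 autosomes, where the index ran from 0.422 to 0.508.

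Borders on the gene-poor chromosomes were also more often held by all libraries. Of the borders of each library, 45.1% and 45.4% in shLUC, 46.0% in shHNRNPU 1 and 48.2% in shHNRNPU 2 were found in all 4. On the other 19 autosomes the values were 40.3%, 39.96%, 41.0% and 46.6%, and on the gene-rich chromosomes 16, 17, 19, 20 and 22 they were 31.1%, 33.3%, 33.5% and 45.6%. The share is of a library's own borders, of which shHNRNPU 2 had the fewest. In shHNRNPU 2 it was 52.6% on chromosome 4, 43.2% on chromosome 13 and 46.3% on chromosome 18, so only chromosome 4 was above the other autosomes there.

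Fewer whole domains of the controls were kept in shHNRNPU 2 than in the other libraries. Of the 496 domains of shLUC 1, 40.9% kept both borders with none added between them in shLUC 2, 43.1% did in shHNRNPU 1 and 27.2% in shHNRNPU 2. Of the 486 domains of shLUC 2, 40.7% did so in shLUC 1, 37.9% in shHNRNPU 1 and 27.4% in shHNRNPU 2. Thus shHNRNPU 1 was above the other control from one side and below it from the other, and shHNRNPU 2 was lowest from both. The other 19 autosomes were alike. There shHNRNPU 2 kept 25.4% of shLUC 1 domains and 26.9% of shLUC 2 domains, shHNRNPU 1 kept 35.9% and 37.1%, and each control kept 37.8% of the other's. In shLUC 2, shHNRNPU 1 and shHNRNPU 2, 26.2%, 27.8% and 39.1% of the shLUC 1 domains lay inside a longer domain. For the shLUC 1 domains of chromosome 4 the share inside a longer domain of shHNRNPU 2 was 45.3%, on chromosome 18 34.0% and on chromosome 13 31.2%. The same share was 41.8% on the other 19 autosomes, below that of chromosome 4, and 52.8% on chromosomes 16, 17, 19, 20 and 22.

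Exactly 10 domains were identical in all 4 libraries, or 2.02% of the shLUC 1 domains of these chromosomes. Over all 24 chromosomes 108 were (2.69%), and on the other 19 autosomes 95 (2.88%), so this share was not higher on the gene-poor chromosomes. Chromosome 18 had the 4.8 Mb domain named above and a domain from 30960001 to 31520000 that held the starts of DSC3, DSC2, DSC1, DSG1, DSG3 and DSG2, the desmosomal cadherins that join epithelial cells. The domain next to it, from 30320001 to 30960000, was also identical and held no gene start. Chromosome 4 had the SFRP2 domain, which also held RNF175, and a domain of GRIA2, a glutamate receptor subunit (157200001 to 158000000). It also had 2 neighbouring domains without a gene start, from 49480001 to 49600000 and from 49680001 to 51760000. Chromosome 13 had a domain of MYO16, an unconventional myosin (108320001 to 108920000). It also had 2 domains without a protein-coding start, from 16000001 to 16280000 and from 18160001 to 18360000. The desmosomal cadherin genes thus sat in the same domain whichever hairpin was used.

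Lost borders numbered 20 of the 421 borders that the shLUC libraries shared on the gene-poor chromosomes. This was 4.75% (95% Wilson interval 3.10% to 7.22%), beside 5.99% of shared borders over all 24 chromosomes. Wilson intervals cover counting error only. Gained borders numbered 9 of 363 borders shared by the shHNRNPU libraries, or 2.48% (1.31% to 4.64%), beside 2.94% over all chromosomes. Both shares were near the background. Chromosome 4 had 12 lost and 6 gained borders, chromosome 13 had 5 and 1, and chromosome 18 had 3 and 2. Of the lost borders, 2 were the edges of a single 40 kb gap on chromosome 4 that only the shLUC files listed (3800001 to 3840000), which left 18 away from gaps.

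The borders named next were the lost and the gained border of each chromosome for which the nearest border in the opposite libraries was most distant, gaps left aside. With 2 libraries per group, none of them has a test of its own. On chromosome 4 the lost border lay at 5840000 in shLUC 1 and 1 bin lower in shLUC 2 (domain start 5800001), 47.8 kb from the start of CRMP1, a collapsin response mediator of neurons, and 129 kb from EVC, a cilium protein of the Hedgehog pathway. The shLUC domains that began there were 480 and 840 kb long, and the shHNRNPU domains across it were 2160 and 2280 kb long. The nearest shHNRNPU border was 840 kb away. On chromosome 13 the lost border lay at 20880000 in both shLUC libraries, 22.7 kb from the start of XPO4, a nuclear export receptor, and 400 kb from the nearest shHNRNPU border. The domains that began there were 600 and 720 kb in shLUC, and those across it were 1840 and 1040 kb in shHNRNPU. On chromosome 18 the lost border lay at 29840000 in shLUC 1 and 1 bin higher in shLUC 2, more than 1 Mb from any protein-coding start (1203 kb from DSC3), and 360 kb from the nearest shHNRNPU border.

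Among gained borders, the one on chromosome 4 at 65560000 was in the same bin in both shHNRNPU libraries, 109 kb from the start of EPHA5, an ephrin receptor of neurons. The shLUC domains across it were 2840 and 2800 kb long, and the shHNRNPU domains that began there were both 1840 kb long. The gained border of chromosome 13, at 72280000 in shHNRNPU 1 and 1 bin higher in shHNRNPU 2, lay 400 kb from the nearest shLUC border in the stretch upstream of DACH1, a transcription factor of eye and limb development. The gained border of chromosome 18, at 45280000 in shHNRNPU 1 and 1 bin lower in shHNRNPU 2, lay 280 kb from the nearest shLUC border and 67.0 kb from the start of SLC14A2, a urea transporter. The named borders of chromosome 4 at 5840000, of chromosome 18, and the gained border of chromosome 13 sat 1 bin apart in the libraries that held them, and were no longer called under an exact-bin match.

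**Figure D4:**
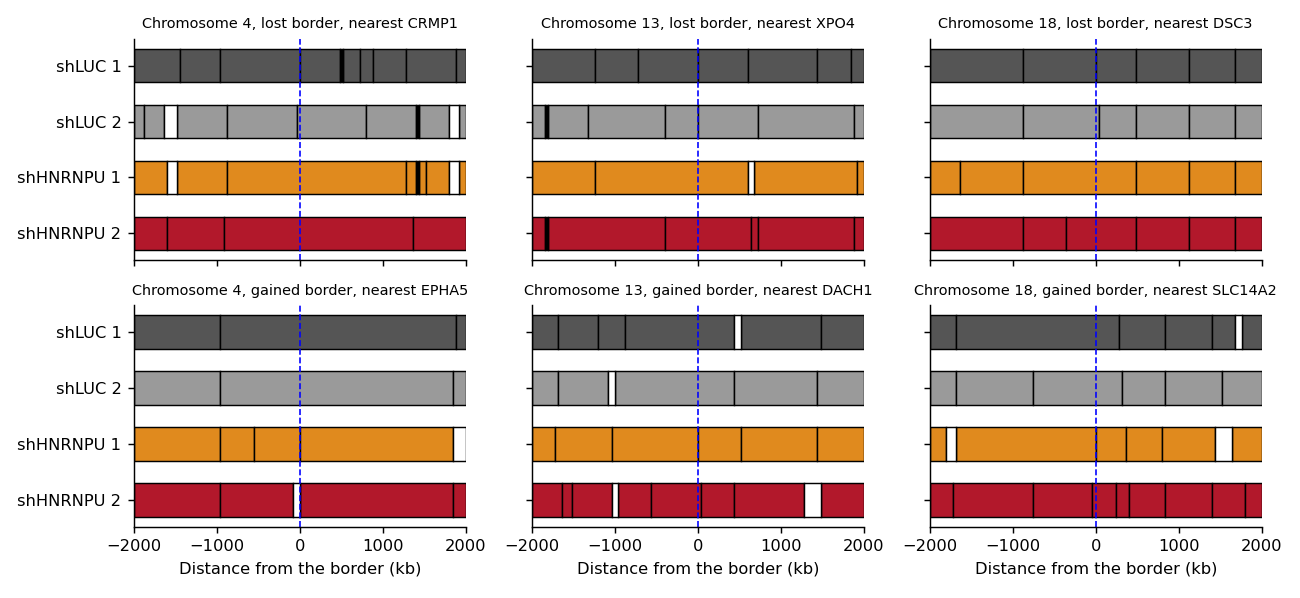
Intervals within 2000 kb of the named lost (top) and gained (bottom) border of each chromosome, by library. Filled bars are domains, white bars boundary regions, black bars gaps, and the dashed line is the border. At the lost border of chromosome 4 the shHNRNPU domains across the line were 2160 and 2280 kb long, and at the gained border of chromosome 4 both shHNRNPU libraries had a domain start at the line.

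Borders that 3 libraries shared and 1 lacked showed which library differed. On the gene-poor chromosomes 11 of 300 such borders (3.67%) were lacking in shLUC 1 alone, beside 4.59% over all 24 chromosomes. In shLUC 2 it was 19 of 305 (6.23%, background 4.91%), and in shHNRNPU 1 it was 12 of 299 (4.01%, background 5.54%). In shHNRNPU 2 it was 47 of 347, or 13.5% (Wilson interval 10.3% to 17.5%), beside 16.2% over all chromosomes and 21.8% on chromosomes 16, 17, 19, 20 and 22. The library that lacked most borders in the genome therefore also lacked most here.

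Chromosome 4 held most of them. In shHNRNPU 2 it lacked 32 of 181 borders (17.7%, 12.8% to 23.9%), whereas chromosome 13 lacked 7 of 96 (7.29%, 3.58% to 14.3%) and chromosome 18 lacked 8 of 70 (11.4%, 5.91% to 21.0%). Chromosome 4 also held 14 of the 19 borders lacking in shLUC 2 alone (14 of 155, or 9.03%). On chromosome 13 the number in shHNRNPU 2 was close to the 6 of 88 (6.82%) that shHNRNPU 1 lacked there. Edges of gaps were not left out of these shares. Those 6 include both edges of a 40 kb gap (113920001 to 113960000) that shHNRNPU 1 did not list. The chromosome 4 borders lacking in shHNRNPU 2 include gap edges too, such as 8440000 and 8480000, and 102760000 and 102800000. The farthest such border of chromosome 4, at 42960000, lay 1000 kb from any shHNRNPU 2 border, and that of chromosome 13, at 33760000, lay 1320 kb away. The latter stood between RFC3, a subunit of the clamp loader in DNA replication (58.1 kb), and STARD13 (83.2 kb), which shHNRNPU 2 placed within the longest domain of chromosome 13. The farthest of chromosome 18, at 7200000, lay 680 kb away and nearest to LRRC30.

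**Figure D5:**
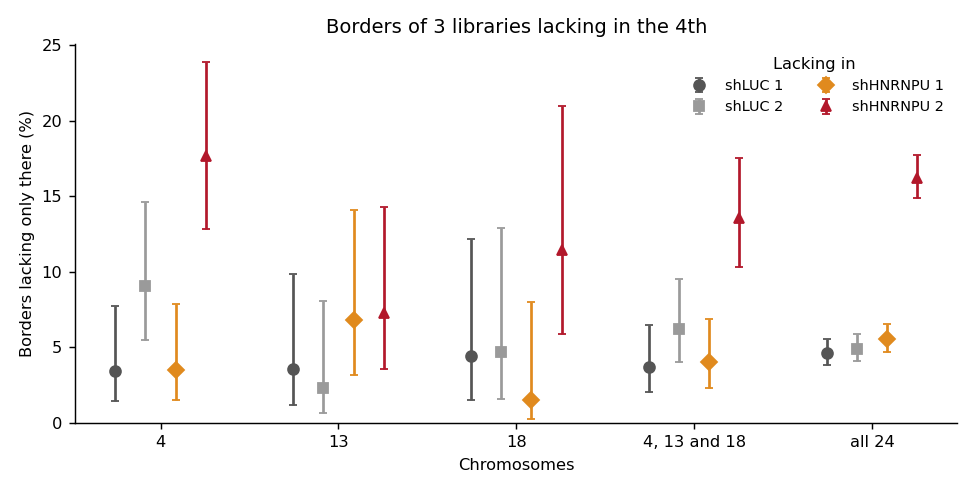
Borders that 3 libraries shared and the remaining library lacked, as a percentage of the borders tested, by chromosome and by the lacking library. Bars are 95% Wilson intervals. In shHNRNPU 2 the share was 17.7% on chromosome 4, 7.29% on chromosome 13 and 11.4% on chromosome 18, against 16.2% over all 24 chromosomes.

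Gene starts were then set against the borders. On chromosomes 4, 13 and 18 a protein-coding start lay within 1 bin of 38.3% and 36.1% of the borders in shLUC, 34.0% in shHNRNPU 1 and 33.8% in shHNRNPU 2. Of all 40 kb bin edges outside gaps on these chromosomes, 23.1% had a start as near, and of borders found in 1 library only, 24.9% did. Borders held by 1 library thus had a start nearby about as often as any bin edge, whereas on the other 18 autosomes with listed starts the values were 43.1% of such borders and 33.5% of bin edges. Lost borders had a start within 1 bin in 8 of 20 cases and gained borders in 2 of 9. Domains without any protein-coding start made up 25.4% and 27.2% of domains in shLUC and 25.1% and 28.3% in shHNRNPU, against 18.3% to 19.3% on the other 18 autosomes.

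A list of 40 landmark genes of these chromosomes was looked up, in 4 classes. A start was listed for 36, and 34 of these starts lay in a domain in all 4 libraries. Both shHNRNPU domains were longer than both shLUC domains for 5 of the 34, where 19.9% of protein-coding starts on 23 chromosomes did so and 20.6% on chromosomes 4, 13 and 18. Both were shorter for 5 of the 34, where 7.33% did so over the 23 chromosomes and 4.09% on the 3 chromosomes. Genes in 1 domain move together, so these counts are not independent. The examples below were chosen after their values were seen, apart from POU4F1, which differed most, and DACH1, which lies by a named border.

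Of 5 receptor genes, 3 had longer and none had shorter domains in both shHNRNPU libraries. EDNRB, the endothelin receptor of neural crest cells, sat in a domain of 400 kb in shLUC 1 and 2 and of 600 kb in shHNRNPU 1 and 2. Its end at 78160000 was the same in all 4 libraries, and the difference came from the lost border at 77760000 beside SLAIN1. There a boundary region of the shLUC libraries, from 77600001 to 77760000 in shLUC 1, was domain in shHNRNPU. FLT1, a receptor for vascular endothelial growth factor, had a domain of 560 and 480 kb in shLUC and 760 and 680 kb in shHNRNPU. KIT, the stem cell factor receptor, had 680 kb in both shLUC and 720 kb in both shHNRNPU libraries, a single bin.

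Of 14 developmental transcription factors with a listed start, 1 had a longer and 3 had a shorter domain in both shHNRNPU libraries. POU4F1, a factor of sensory neurons, sat in a domain of 1200 and 1120 kb in shLUC and of 720 and 600 kb in shHNRNPU. The shHNRNPU domains ended at 78880000 and 78760000, which is too far apart to count as 1 shared border. DACH1 had 1320 and 1440 kb in shLUC and 1040 and 600 kb in shHNRNPU. KLF5, a pluripotency-associated factor, had 960, 1000, 920 and 840 kb, which differ by a few bins. GATA6, a factor of endoderm, had 920 and 880 kb in shLUC and 880 and 840 kb in shHNRNPU, which overlap.

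Of 6 growth factor and signal genes none had a domain longer or shorter in both shHNRNPU libraries. FGF2, a growth factor used to maintain hPSCs, had 400 and 440 kb in shLUC, 440 kb in shHNRNPU 1 and 2480 kb in shHNRNPU 2, which lacked the border at 122600000 that the others shared. SMAD2, a transducer of Activin and Nodal signals, had 240, 280 and 240 kb in the first 3 libraries and 760 kb in shHNRNPU 2. Both genes thus followed shHNRNPU 2 alone.

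Of 11 adhesion and neural surface genes with a listed start, 9 lay in domains in all 4 libraries, of which 1 had longer and 2 had shorter domains in both shHNRNPU libraries. CDH2, neural cadherin, had 1200 kb in shLUC 1 and 2 and 1440 and 1320 kb in shHNRNPU, but the shHNRNPU domains lay at different positions (26760001 to 28200000 and 27640001 to 28960000). GPC6, a glypican, had 1440 and 1480 kb in shLUC and 1200 and 1120 kb in shHNRNPU, again at different positions (93200001 to 94400000 and 92120001 to 93240000). PCDH9, a protocadherin, had 1600 kb in shLUC 1 and 2, 120 kb in shHNRNPU 1 and 1560 kb in shHNRNPU 2, so that its shorter domain rested on shHNRNPU 1. UNC5C, a netrin receptor, had 1280 and 1320 kb in shLUC, 480 kb in shHNRNPU 1 and 1320 kb in shHNRNPU 2, where the groups overlapped.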

How the data were processed

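Hi-C was carried out in 4 libraries of H1 hPSCs. Per the labels, the submitters' processing notes name Bowtie2 and hg38, and the domain caller, matrix normalization and depth are not given in the sources used here. The authors deposited interval lists per library (chromosome, start and end of domains, boundary regions and gaps) with no counts or scores, so the depth behind each call is unknown. All ends were multiples of 40 kb and intervals were read as genome positions, printed counting from 1. The last file position lay 43.8 to 165 kb beyond the last gene end of GRCh38.p14 on every chromosome, so gene positions of that assembly were used.

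Members are rows of chromosomes 4, 13 and 18. Members, gene lists and alternatives were chosen with earlier results of these data known. Libraries were grouped by title. Borders were matched one to one within 1 bin. Differences of means were tested by exact two-sided permutation of the 4 libraries. Named borders lay more than 3 bins from a gap and farthest from a border in the lacking libraries, ties going to the lower position. Of each landmark gene the outermost listed start was used, and genes by a named border or with the greatest difference in domain length were to be described. Distances from borders to genes were taken to the nearest of all listed starts. Alternatives were other matching distances, filters on short or gap-side intervals, other backgrounds, omission of single libraries and a replicate block. Border calling was tested on simulated data. Promoter starts matched 36 of 40 landmark genes. Chromosome 8 was not used with gene starts, which left 18 other autosomes. Base composition, HindIII sites and motifs per bin were planned but not run, because no genome sequence was used here. Python 3.11.15, numpy 2.4.6, scipy 1.17.1 and matplotlib 3.10.9 were used.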

Additional observations from a re-analysis of the deposited data

Results flagged for a closer look

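The number of domains moved in opposite directions on 2 of the chromosomes, with every shHNRNPU library on 1 side of both controls. On chromosome 13 the difference was −6 domains and on chromosome 18 it was 5.5 domains. Both orders depended on domains of at most 200 kb. On chromosome 13 these numbered 13 and 14 in shLUC, 9 in shHNRNPU 1 and 17 in shHNRNPU 2. On chromosome 18 they numbered 5 each in shLUC 1, shLUC 2 and shHNRNPU 1, and 13 in shHNRNPU 2. Without them the groups overlapped on both chromosomes. The log2 ratio of chromosome 18 to chromosome 13 was −0.46 and −0.52 in shLUC and −0.33 and −0.38 in shHNRNPU, a difference of 0.14. That the groups separate in this ratio follows from the counts that drew attention to it, so the difference between the chromosomes was not tested. Both chromosomes come from the same libraries, and the cause was not tested.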

How the results depend on the processing

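Boundary regions on the 3 chromosomes and the domain number relative to the other autosomes kept their sign in all alternatives run. Leaving out 1 library at a time gave −35 to 4 domains (4 without shHNRNPU 2), 0 to 40 kb in median length (0 without shHNRNPU 2), −23.5 to −19.5 boundary regions, 0.04 to 0.13 in relative domain number (log2), −0.38 to 0.00672 in relative boundary regions (0.00672 without shHNRNPU 1) and −0.016 to 0.0867 in border sharing. Without shLUC 1, shLUC 2 or shHNRNPU 2 border sharing was −0.0076, −0.016 and −0.00629, and without shHNRNPU 1 it was 0.0867. Lost borders numbered 36 to 79 and gained borders 22 to 52, since fewer libraries then had to share or lack a border. Among domains touching no gap the median differed by 0 kb. At the same bin border sharing was −0.000133 and 4 borders were gained, by the stricter match. Requiring only that no border lay within 1 bin gave 37 lost and 20 gained borders, by the looser definition. Boundary regions of at least 3 bins, those touching no gap, adjoining ones counted once, a background without chromosomes 16, 17, 19, 20 and 22, and the relative number of boundary regions were chosen after seeing the data. With a replicate block on the library numbers the differences stayed at −15.5 domains, −21.5 boundary regions, 20 kb, 0.08 and −0.19, with exact sign-flip p-values of 0.5, and 1.0 for the median, where 0.5 is the smallest that 2 pairs allow. No label ties equal numbers to 1 batch, and deviations of same-numbered libraries correlated at 0.18 over 22 autosomes. Depth is unknown and limits every comparison of number and length.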
